A study of Mus musculus with 20 samples.

Results

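The subject here is what lentiviral delivery of a control hairpin did to the transcriptome of melb-a cells, a mouse melanoblast line, measured by RNA-seq of poly(A) RNA. The comparison used 12 of the 20 libraries in the series: 4 of parental cells that received no virus, 4 of cells given lentivirus with a hairpin against luciferase (shLuciferase) and 4 of cells given lentivirus with a scrambled hairpin (shScramble). The other 8 libraries, from cells with either of the shHIRA hairpins, entered the fit so that every gene had 1 estimate of its spread, and their levels are given only side by side. The 12 libraries were chosen by their labels alone, and the contrast was the mean of both control hairpin groups minus the parental group, followed by each control hairpin against parental cells. The labels call every group wild type and give all 20 libraries the same medium, which held serum, SCF and Fgf2. Cells were exposed to virus for 16 h in the presence of polybrene (8 µg/ml), followed by selection in puromycin at 1 µg/ml. Virus, polybrene, the vector, the hairpin and puromycin therefore came together, and their parts in any difference cannot be told apart. The labels number 4 biological replicates in each group and the design text calls them independent; all are cultures of 1 cell line.

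A control hairpin is meant to have no target in the cell, and such cells are the usual reference for a knockdown. Cells carry sensors of foreign nucleic acid: RIG-I and MDA5 (the genes Ddx58 and Ifih1) detect double-stranded RNA in the cytosol and signal through MAVS to the type I interferon genes. Interferon then acts through its receptor and a complex of transcription factors that holds STAT2 and IRF9 and binds the interferon-stimulated response element in the promoters of antiviral genes.

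Totals ran from 17400000 to 20700000 estimated counts in parental libraries and from 16800000 to 20700000 in control shRNA libraries (two-sided exact permutation test over libraries, p = 0.465, adjusted 0.465 over 3 measures). The share of counts from the 13 mitochondrially encoded mRNAs was 7.17 ± 1.40% in parental libraries (SD, n = 4) and 8.10 ± 1.22% with control hairpins (SD, n = 8; exact permutation p = 0.267, adjusted 0.4). Genes with at least 5 counts numbered 13120 ± 109 and 13476 ± 235 (exact permutation p = 0.0121, adjusted 0.0364; the smallest p this design allows is 0.00202). Melanoblast markers Mitf, Pax3, Kit, Dct, Pmel, Mlana, Tyrp1 and Tyr were present in all 12 libraries. Ednrb stayed at or below 0.17 CPM (counts per 1000000 counts of the genes tested, after TMM scaling), and Sox10 was at or below 0.246 CPM in 8 libraries, at 2.22 to 18.3 CPM in shScramble replicates 1 to 3 and at 29.8 CPM in parental replicate 3. Hira, the gene targeted elsewhere in the series, stood at 81.9 to 101 CPM in parental cells and at 63.7 to 89.8 CPM with control hairpins (log2 fold change −0.21, SE 0.13, edgeR quasi-likelihood adjusted p = 0.458).

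Of 13541 genes tested, 278 (2.05%) were higher and 212 (1.57%) lower with a control hairpin than in parental cells. The rises were the larger changes: 198 of the 278 were at least 2-fold and 60 at least 8-fold, while 62 of the 212 falls were at least 2-fold and 0 reached 8-fold. In 215 of the rising genes all 8 control shRNA libraries lay above all 4 parental libraries, and in 160 of the falling genes all 8 lay below. Over all 13541 genes tested, called or not, all 8 lay above in 452 and below in 412. Genes of the interferon response were the largest group among the lists' risers. Of 124 tested genes in 6 lists on nucleic acid sensing, interferon signalling, antiviral effectors and antigen presentation, 66 rose and 0 fell. The count moved with single libraries: there were 150, 125, 130 and 147 rising genes without parental replicates 1, 2, 3 and 4, 185 and 179 without shLuciferase replicates 3 and 4, and 322 without shLuciferase replicate 2. Falling genes numbered 88, 89, 86 and 111 without parental replicates 1 to 4, 115 and 117 without shLuciferase replicates 3 and 4, 117 and 119 without shScramble replicates 2 and 3, and 290 without shLuciferase replicate 2.

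**Figure D1:**
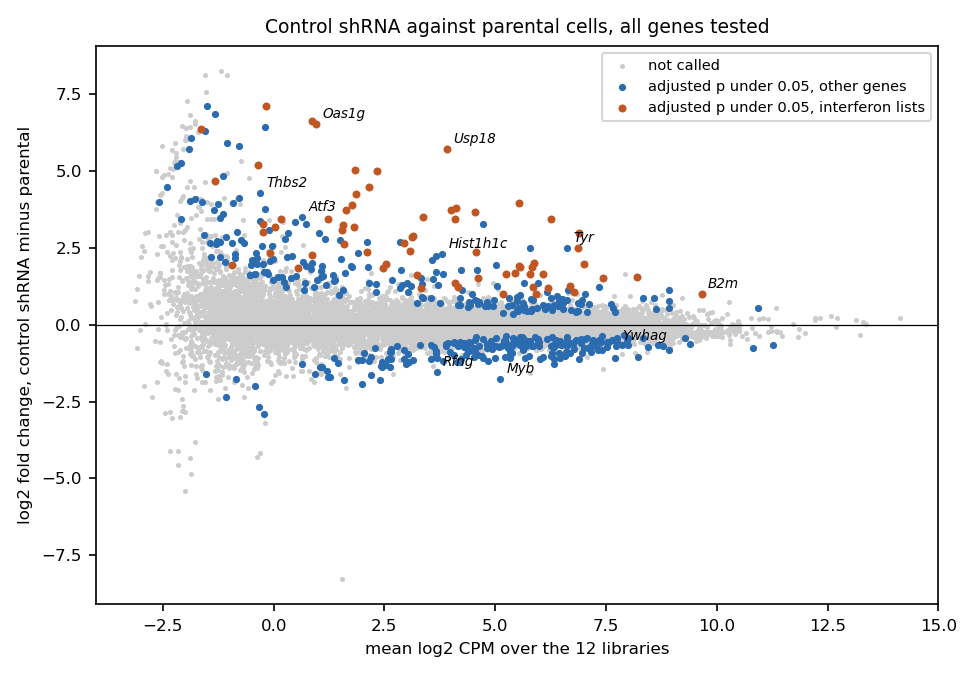
Each point is 1 of the genes tested, with its mean log2 CPM over the 12 libraries on the x axis and its log2 fold change (control shRNA minus parental) on the y axis. Grey genes were not called, blue and orange genes had an adjusted p under 0.05, and orange marks members of the interferon lists. Orange genes lie above 0; 60 called rises and 0 called falls are at least 8-fold.

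Both control hairpins showed the change separately. Against parental cells, 179 genes (1.32%) rose and 84 (0.62%) fell with shLuciferase, and 131 (0.967%) rose and 45 (0.332%) fell with shScramble. Called with both hairpins in 1 direction were 107 higher genes (0.79%) and 34 lower genes (0.251%); these comparisons share the 4 parental libraries, so the counts are not independent. Of the 107, 52 belonged to the interferon lists. When shScramble was set directly against shLuciferase, 0 genes (0%) passed in edgeR's test. There, 170 genes had an unadjusted p under 0.05, which is 1.26% of the genes tested. That is below the share of 0.05 expected if no gene differed, so the test was cautious in this comparison. The 0 calls therefore do not show that the hairpins acted alike. The smallest adjusted p was 0.260. DESeq2 called 5 genes in that comparison, and limma on log2(TPM + 1) called 1. Leaving out 1 library at a time, the rising genes ran from 78 (without shLuciferase replicate 4) to 241 (without shLuciferase replicate 2) for shLuciferase, and from 50 (without parental replicate 2) to 152 (without shLuciferase replicate 2) for shScramble. For genes called with both hairpins they ran from 45 (without parental replicate 2) to 136 (without shLuciferase replicate 2).

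The promoters of 6 rising genes are shown, 4 with and 2 without the sequence through which the interferon complex is known to act. Each line gives the 120 bases upstream of the RefSeq transcript start (GRCm38.p6), 5′ to 3′ on the gene's strand. Capitals mark GAAANNGAAA on either strand, the core of the interferon-stimulated response element; matches can overlap.
Isg15: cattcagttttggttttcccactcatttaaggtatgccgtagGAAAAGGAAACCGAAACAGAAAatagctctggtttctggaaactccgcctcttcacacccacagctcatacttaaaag
Ifit1: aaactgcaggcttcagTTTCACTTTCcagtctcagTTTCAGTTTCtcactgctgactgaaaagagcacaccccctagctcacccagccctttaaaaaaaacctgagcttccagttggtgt
Gbp7: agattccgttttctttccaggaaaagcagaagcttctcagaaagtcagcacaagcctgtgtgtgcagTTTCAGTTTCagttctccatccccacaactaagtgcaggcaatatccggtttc
Oas1a: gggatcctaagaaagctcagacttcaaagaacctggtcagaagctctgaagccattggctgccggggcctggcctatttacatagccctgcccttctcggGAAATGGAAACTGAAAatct
Ifih1: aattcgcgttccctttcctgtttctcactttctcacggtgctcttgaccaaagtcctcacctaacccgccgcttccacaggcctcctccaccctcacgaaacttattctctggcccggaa
Atf3: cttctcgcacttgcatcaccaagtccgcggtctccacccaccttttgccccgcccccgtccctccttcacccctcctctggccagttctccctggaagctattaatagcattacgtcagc
They lie at chr4:156200819-156200938 (minus strand, Isg15), chr19:34640769-34640888 (plus strand, Ifit1), chr3:142530216-142530335 (plus strand, Gbp7), chr5:120907526-120907645 (minus strand, Oas1a), chr2:62646256-62646375 (minus strand, Ifih1) and chr1:191183334-191183453 (minus strand, Atf3). Isg15 holds 3 overlapping matches, Ifit1 has a pair spaced apart, Oas1a has 2 that overlap just before the start, and Gbp7 has 1. Neither Ifih1 nor Atf3 has a match in the 250 bases upstream. Over the 250 bases before the start, 3.11% of the 9704 tested genes with a RefSeq entry held the motif. Among the 50 called interferon-list genes with an entry, 25 held it (50%), against 8 of 48 interferon-list genes that were tested and not called (16.7%). The share was 8.21% (11 of 134) among the other rising genes and 2.56% (4 of 156) among falling genes. A match describes the letters in this window and is not evidence of binding. The interferon lists mix antiviral effectors with receptor, kinase and adaptor genes and were chosen with earlier results of these data known. The difference in share between their called and uncalled members is therefore no independent evidence.

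Sensors of RNA were among the rising genes. Of 14 tested members of the RNA sensing list 6 were higher (42.9%, against 2.05% of all genes tested) and 0 lower. The list's median log2 fold change was 0.44 (0.0065 over all genes tested). Ifih1, which encodes MDA5, is a protein-coding gene on chromosome 2 (62595798 to 62646255, minus strand, GRCm38 with the GENCODE M21 annotation, as for all gene positions given). It stood at 2.03, 3.69, 2.02 and 1.64 CPM in the parental libraries. With shLuciferase it stood at 14.8, 6.59, 22.2 and 20.9 CPM, and with shScramble at 15.2, 19.2, 13.7 and 6.67 CPM. The groups did not overlap, and the lowest control shRNA values came from shLuciferase replicate 2 and shScramble replicate 4. The log2 fold change was 2.66 (SE 0.40, adjusted p = 0.00146), with 2.78 for shLuciferase alone and 2.54 for shScramble alone. Ddx58, encoding RIG-I, rose from 34.4 to 44.8 CPM in parental cells to between 122 and 307 CPM (log2 fold change 2.49, SE 0.37, adjusted p = 0.00146). Zbp1, a sensor of Z-form nucleic acid, rose by 3.44 in log2 CPM (SE 0.60, adjusted p = 0.00338), although shLuciferase replicate 2 at 0.297 CPM lay within the parental range of 0.155 to 0.308 CPM. The rise of Eif2ak2, which encodes the RNA-activated kinase PKR, was smaller, from 60.3 to 77.4 CPM in parental cells to between 95.1 and 198 CPM (log2 fold change 1.06, SE 0.17, adjusted p = 0.00239). The adaptor and kinase genes downstream did not pass: Mavs was at 65.7 to 77.8 CPM in parental cells and 57.9 to 75.1 CPM with control hairpins (adjusted p = 0.677), and for Tbk1 and Irf3 the adjusted p was 0.768 and 0.556. In the DNA sensing list 2 of 7 tested members rose (28.6%, against 2.05% of all genes tested). Both belong to the Ifi200 family, which holds interferon-inducible DNA-binding proteins. Ifi204 rose from at most 0.492 CPM to at least 0.811 CPM (adjusted p = 0.0126, and 0.0506 without parental replicate 2). Ifi203 rose with adjusted p = 0.0305, lost on leaving out any of 7 of the 12 libraries in turn (adjusted p up to 0.113). Of the 31-base words in Ifi204 and Ifi203 transcripts, 34.6% and 21.9% also occur in other genes, so reads could be split between genes. Ifi203 also overlaps Mndal on the same strand. The DNA sensing list's count was 1 or 0 without any 1 parental library, and 1 without shLuciferase replicate 3, shLuciferase replicate 4 or shScramble replicate 2.

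Of 14 tested genes for interferon ligands, receptors and JAK-STAT signalling, 4 rose (28.6%, against 2.05% of all genes tested) and 0 fell (median 0.23). Among those that rose were the transcription factor genes Irf9 and Stat2 and the negative regulator Usp18. Irf9 was at 21.1, 17, 20.4 and 21.6 CPM in parental cells. It was at 60.9, 40.9, 84.1 and 91.3 CPM with shLuciferase and at 58.0, 92.4, 97.5 and 68.7 CPM with shScramble. All 8 control shRNA libraries lay above the parental ones, with shLuciferase replicate 2 lowest of the 8. The log2 fold change of Irf9 was 1.89 (SE 0.30, adjusted p = 0.00209), and Stat2 rose by 1.69 (SE 0.26, adjusted p = 0.00155). Among the receptor and kinase genes, Ifnar1 stood at 122 to 160 CPM in parental cells and at 110 to 151 CPM with control hairpins (adjusted p = 0.694), and Ifnar2 and Jak1 had adjusted p = 0.941 each. Ifnb1, the gene of interferon beta, had 0 counts in all 4 parental libraries and 0 or 1 count in each control shRNA library. Ifna4, an interferon alpha gene, had 0 counts in all 4 parental libraries and 0 to 2 counts in each control shRNA library. Ifng, the interferon gamma gene, had 2 counts in shLuciferase replicate 4 and 0 in the other 11 libraries. Ifna2, Ifnl2 and Ifnl3 had 0 counts in all 12 libraries. Outside these lists, 2 predicted genes of the interferon gene cluster on chromosome 4 did rise. They were Gm13283 and Gm13288 (log2 fold change 2.13 and 2.05, edgeR adjusted p = 0.016 and 0.019), given under other observations. The time from infection to harvest is not given in the sources used here.

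Usp18, whose product removes ISG15 from proteins and dampens signalling at the interferon receptor, had the largest fold change of the 5 marker genes given for this comparison. It is protein-coding and lies on chromosome 6 (121245906 to 121270917, plus strand). It stood at 0.983, 1.38, 1.24 and 1.39 CPM in the parental libraries. With shLuciferase it stood at 42.7, 8.62, 76.3 and 111 CPM, and with shScramble at 38.4, 109, 104 and 31.4 CPM. The groups did not overlap, but the control shRNA libraries spread over an order of magnitude, with shLuciferase replicate 2 far below the rest. The log2 fold change was 5.69 (SE 1.07, adjusted p = 0.00553), 5.57 with shLuciferase and 5.81 with shScramble, and the difference between the hairpins was 0.24 (SE 0.86).

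Antiviral effectors gave 41 of the 66 rising genes of the interferon lists. Of 57 tested members 41 rose (71.9%, against 2.05% of all genes tested), 0 fell and the median log2 fold change was 1.98. In 42 of the 57 all control shRNA libraries lay above all parental libraries, against 452 of 13541 genes tested. With both hairpins, 32 were called. Isg15, a ubiquitin-like modifier, was at 2.83, 2.81, 3.88 and 3.75 CPM in parental cells. It was at 31.1, 10.2, 52.4 and 80.4 CPM with shLuciferase and at 33.9, 72.6, 63.9 and 26.8 CPM with shScramble. As for Usp18, shLuciferase replicate 2 was lowest and shLuciferase replicate 4 highest of the 8 (log2 fold change 3.80, SE 0.78, adjusted p = 0.0103). Ifit1, which binds RNA lacking the host cap methylation, rose from 5.35 to 9.53 CPM in parental cells to between 37.7 and 222 CPM (log2 fold change 3.96, SE 0.70, adjusted p = 0.00338). Mx2, of the dynamin-like GTPase family, rose from 3.91 to 5.39 CPM to between 13.0 and 84.6 CPM (log2 fold change 3.67, SE 0.59, adjusted p = 0.00221). It is annotated as a polymorphic pseudogene. Ddx60, a helicase, had the smallest adjusted p of the list, with a parental range of 0.411 to 0.777 CPM and a control shRNA range of 2.08 to 13.2 CPM (log2 fold change 3.87, SE 0.49, adjusted p = 0.000566). Parp14 and Adar, the RNA-editing adenosine deaminase, rose by 2.37 (SE 0.32) and 1.19 (SE 0.18), with adjusted p = 0.000845 and 0.00151.

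Genes of the oligoadenylate synthetase family, which includes the enzymes that make the second messenger activating RNase L, held some of the highest fold changes. Oas1a had 0, 0, 2 and 4 estimated counts in the parental libraries and Oas1g had 4, 2, 0 and 0, so their fitted log2 fold changes of 6.63 (SE 1.52) and 6.51 (SE 1.23) depend on how the fit treats counts near 0. With control hairpins Oas1a ran from 0.941 to 18.4 CPM and Oas1g from 1.14 to 13.9 CPM, in both cases lowest in shLuciferase replicate 2. Of the 31-base words in Oas1a transcripts, 68.7% also occur in Oas1g, and reads could be split between them, so which of the pair rose is uncertain. Oas1a passed at an adjusted p of 0.0196 and not on leaving out any 1 of the 4 parental libraries (adjusted p up to 0.0779). Oas2, which shares little sequence with them, stood at 0.983, 0.275, 0.155 and 0.154 CPM in parental cells and at 1.98 to 24.7 CPM with control hairpins (log2 fold change 5.04, SE 0.86, adjusted p = 0.00302). Oas1b rose by 3.72 (SE 0.70), Oas1c by 2.35 (SE 0.36) and Oasl2 by 3.73 (SE 0.79), with adjusted p = 0.00548, 0.0016 and 0.0126. Oas1b is annotated as a polymorphic pseudogene. Oasl2 did not pass without parental replicate 2 or parental replicate 3 (adjusted p up to 0.0526). Apol9a, an apolipoprotein L gene, rose by 5.01 (SE 1.01, adjusted p = 0.00884), and 20.2% of its words occur in Apol9b. Xaf1, linked to apoptosis, rose by 3.42 (SE 0.55, adjusted p = 0.00222). For Ifit3 the rise was 3.42 (SE 0.65, adjusted p = 0.00562), with 61.8% of its words shared with Ifit3b.

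**Figure D2:**
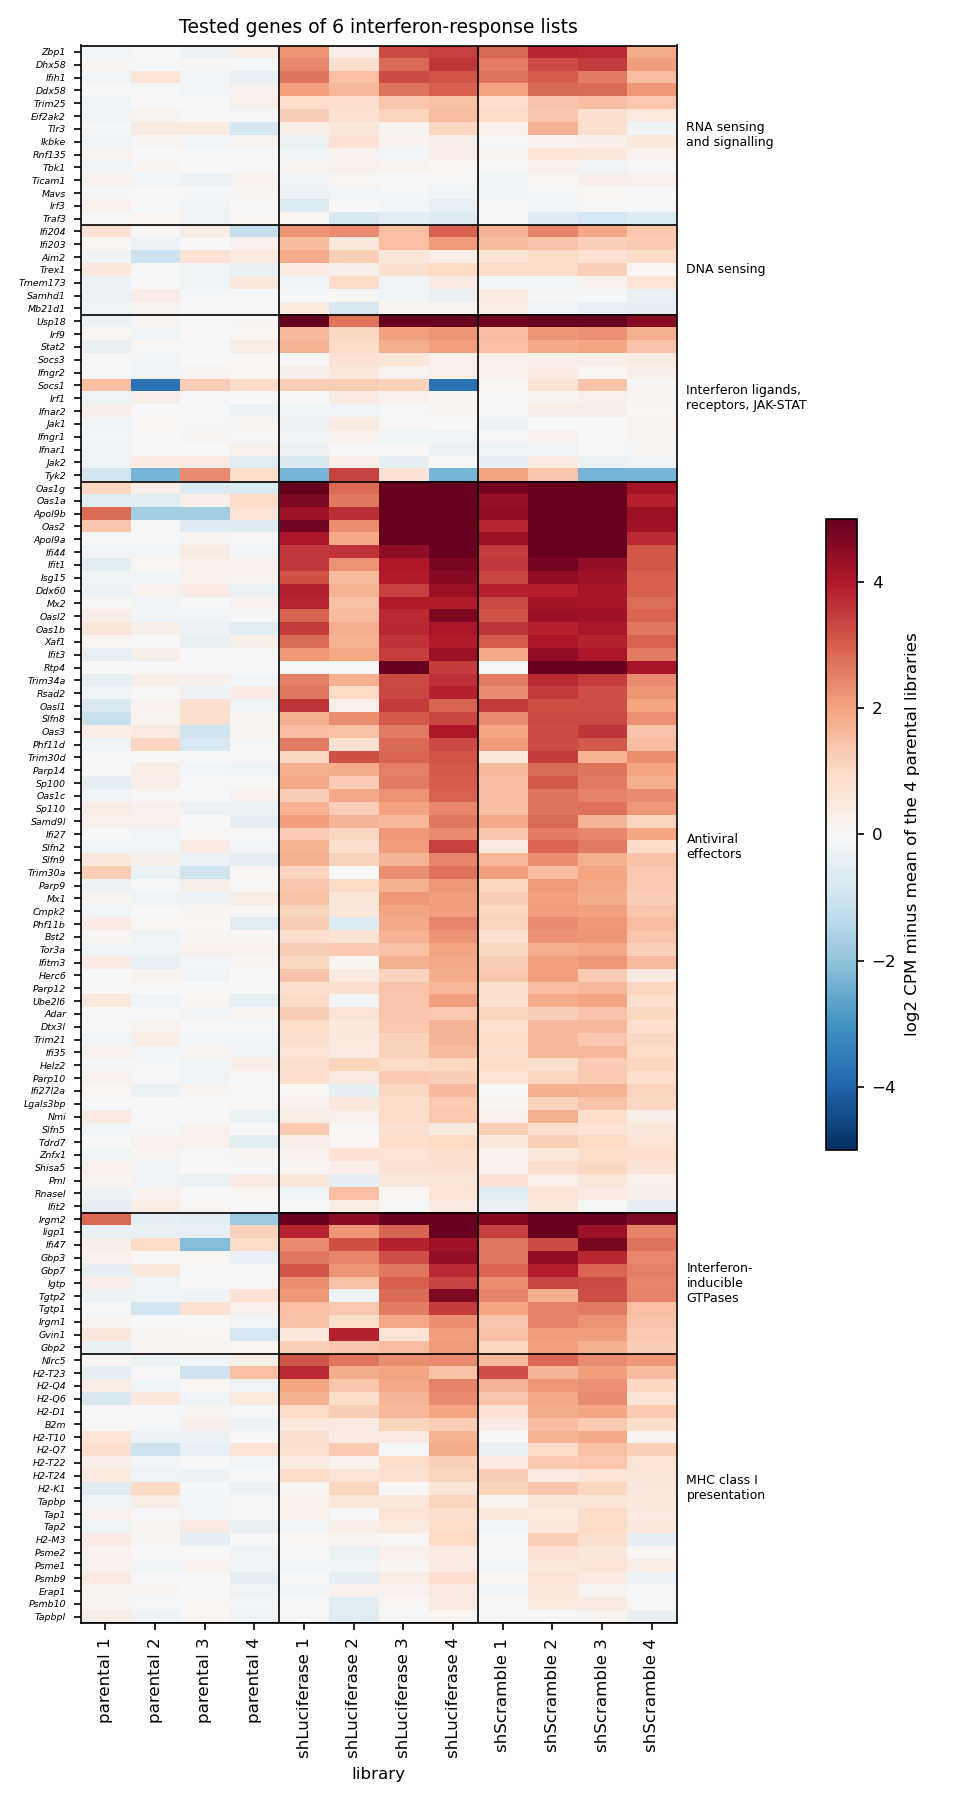
Rows are 123 tested genes of the 6 interferon lists and columns the 12 libraries; colour gives log2 CPM minus the mean of the 4 parental libraries, limited to 5 in either direction. Most rows of the antiviral and GTPase lists are red in all 8 control shRNA columns, palest in shLuciferase replicate 2.

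Interferon-inducible GTPases, which attack vacuoles that hold pathogens, had the highest median of any list, 3.24. Of 11 tested members 9 were higher (81.8%, against 2.05% of all genes tested) and 0 lower. Gbp7, a guanylate-binding protein gene on chromosome 3 (142530342 to 142550149, plus strand), was at 0.43, 0.991, 0.57 and 0.617 CPM in parental cells. It was at 6.4, 3.32, 4.48 and 9.57 CPM with shLuciferase and at 5.44, 11.1, 5.43 and 4.12 CPM with shScramble. No libraries overlapped, and shLuciferase replicate 2 was again lowest (log2 fold change 3.24, SE 0.39, adjusted p = 0.000566). Gbp3 rose by 3.51 (SE 0.66, adjusted p = 0.00545) and Gbp2 by 1.61 (SE 0.28, adjusted p = 0.00358). Of the immunity-related GTPases, Igtp rose by 2.84 (SE 0.48, adjusted p = 0.0029) and Irgm1 by 1.86 (SE 0.31, adjusted p = 0.00239). Irgm2 had 44 counts in parental replicate 1 against 3, 3 and 0 in the others, and stood at 8.47 to 27.3 CPM with control hairpins (log2 fold change 4.48, SE 0.92, adjusted p = 0.0104). The Irgm2 and Igtp genes overlap on the same strand.

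Antigen presentation moved less: 4 of 21 tested members of the MHC class I list rose (19.0%, against 2.05% of all genes tested), 0 fell and the median was 0.78. Nlrc5, the transactivator of class I genes, rose from 0.716 to 1.08 CPM in parental cells to between 2.88 and 8.18 CPM (log2 fold change 2.60, SE 0.40, adjusted p = 0.0016). The class I heavy chain genes H2-D1 and H2-Q4 rose by 1.52 (SE 0.28) and 1.95 (SE 0.33), with adjusted p = 0.00493 and 0.00282; 26.9% and 53% of their words occur in other genes, mostly of the same family. B2m, the light chain, was at 552, 496, 627 and 441 CPM in parental cells and at 703 to 1531 CPM with control hairpins (log2 fold change 0.98, SE 0.20, adjusted p = 0.0106). The peptide transporter gene Tap1 did not pass (0.54, SE 0.27, adjusted p = 0.307). In the NF-kB and inflammatory cytokine list 2 of 14 rose (14.3%, against 2.05% of all genes tested). They were the chemokine gene Ccl5 (2.33, SE 0.29, adjusted p = 0.000566) and the NF-kB subunit gene Relb (1.70, SE 0.30, adjusted p = 0.00392). Cxcl10 stood at 6.66 to 8.36 CPM in parental cells and at 6.34 to 37.1 CPM with control hairpins and did not pass (adjusted p = 0.0866).

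**Figure D3:**
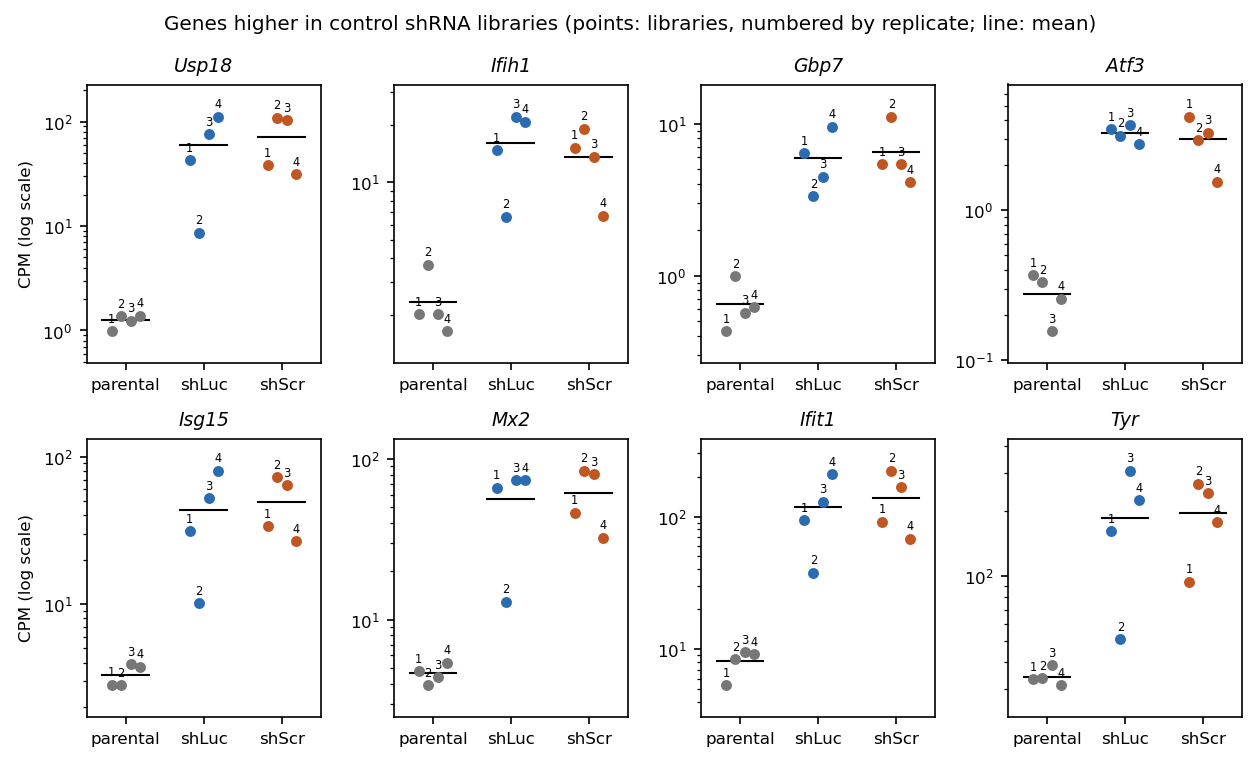
CPM of 8 rising genes in each library on a log scale, with the mean of each group as a line and the replicate number beside each point. Parental points lie below all control shRNA points for each of the 8 genes; shLuciferase replicate 2 is the lowest control shRNA point for 7 of them, all but Atf3.

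The strength of the response varied between libraries of the same hairpin. Taking the median over the antiviral effectors of log2 CPM minus the parental mean, the shLuciferase libraries stood at 1.40, 0.99, 2.09 and 2.46 and the shScramble libraries at 1.36, 2.54, 2.17 and 1.45. For the GTPases the values were 2.31, 2.19, 2.83 and 3.72 with shLuciferase and 2.45, 3.31, 3.20 and 2.46 with shScramble. The parental libraries stayed between −0.02 and 0.13 on both lists. Replicates 3 and 4 of shLuciferase and 2 and 3 of shScramble were highest on both lists, and the lowest, shLuciferase replicate 2, still lay above every parental library. On the first axis of a multidimensional scaling of the 12 libraries, which took 19.3% of the variance, parental libraries lay between −1.38 and −1.16, shLuciferase replicate 2 at −0.07 and the other 7 between 0.18 and 1.14. Without shLuciferase replicate 2, 241 genes rose and 164 fell with shLuciferase, against 179 and 84 with it. In the shHIRA libraries, set beside these without a test, Usp18 ran from 3.85 to 175 CPM (median 78.3) and Isg15 from 5.24 to 188 CPM (median 79.6).

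Early response and stress genes formed a smaller group. Atf3, an inducible repressor of the ATF family, is protein-coding and lies on chromosome 1 (191170296 to 191218039, minus strand). It stood at 0.369, 0.33, 0.155 and 0.257 CPM in parental cells. It stood at 3.5, 3.17, 3.71 and 2.79 CPM with shLuciferase and at 4.24, 2.95, 3.31 and 1.56 CPM with shScramble. The control shRNA libraries were close together here, shLuciferase replicate 2 included (log2 fold change 3.49, SE 0.50, adjusted p = 0.00113). Of 18 tested AP-1 and immediate early genes 3 rose (16.7%, against 2.05% of all genes tested) and 0 fell (median 0.50). They were Atf3, the zinc finger gene Egr1 (2.24, SE 0.33, adjusted p = 0.00146) and the orphan receptor gene Nr4a3 (1.35, SE 0.36, adjusted p = 0.0439). The call for Nr4a3 was lost without any of 10 of the 12 libraries (adjusted p up to 0.139). Fos and Junb had adjusted p = 0.0695 and 0.119. Of 24 targets of the integrated stress response, the program that follows eIF2 alpha phosphorylation, 6 rose (25%) and 0 fell (median 0.61). Ddit3, the pro-apoptotic factor CHOP, was at 17.2, 19.0, 20.0 and 18.2 CPM in parental cells. It was at 44.8, 25.8, 50.4 and 53.7 CPM with shLuciferase and at 40.3, 53.9, 51.1 and 33.9 CPM with shScramble. All 8 lay above the parental range (log2 fold change 1.25, SE 0.20, adjusted p = 0.00221). Chac1, which degrades glutathione, rose from 1.55 to 3.26 CPM to between 4.31 and 28.0 CPM (2.69, SE 0.45, adjusted p = 0.00277). Nupr1 and Sesn2 rose by 1.77 (SE 0.31) and 1.34 (SE 0.27), with adjusted p = 0.00304 and 0.00797. The list on the unfolded protein response and heat shock held 1 riser among 20 (5%), Herpud1 (0.75, SE 0.15, adjusted p = 0.00801), and a median of 0.018. In a list of this size 1 riser is near the 2.05% over all genes tested. Of 25 p53 targets 0 were called in edgeR's test, near the share over all genes tested. Cdkn1a, the p21 gene, was at 7.96 to 12.9 CPM in parental cells and 10.2 to 21.5 CPM with control hairpins (adjusted p = 0.119). Of the NRF2 targets 1 of 17 rose (5.88%), Hmox1, the heme oxygenase gene (0.69, SE 0.14, adjusted p = 0.00801). A list of this size with 1 riser is near the 2.05% over all genes tested.

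**Figure D4:**
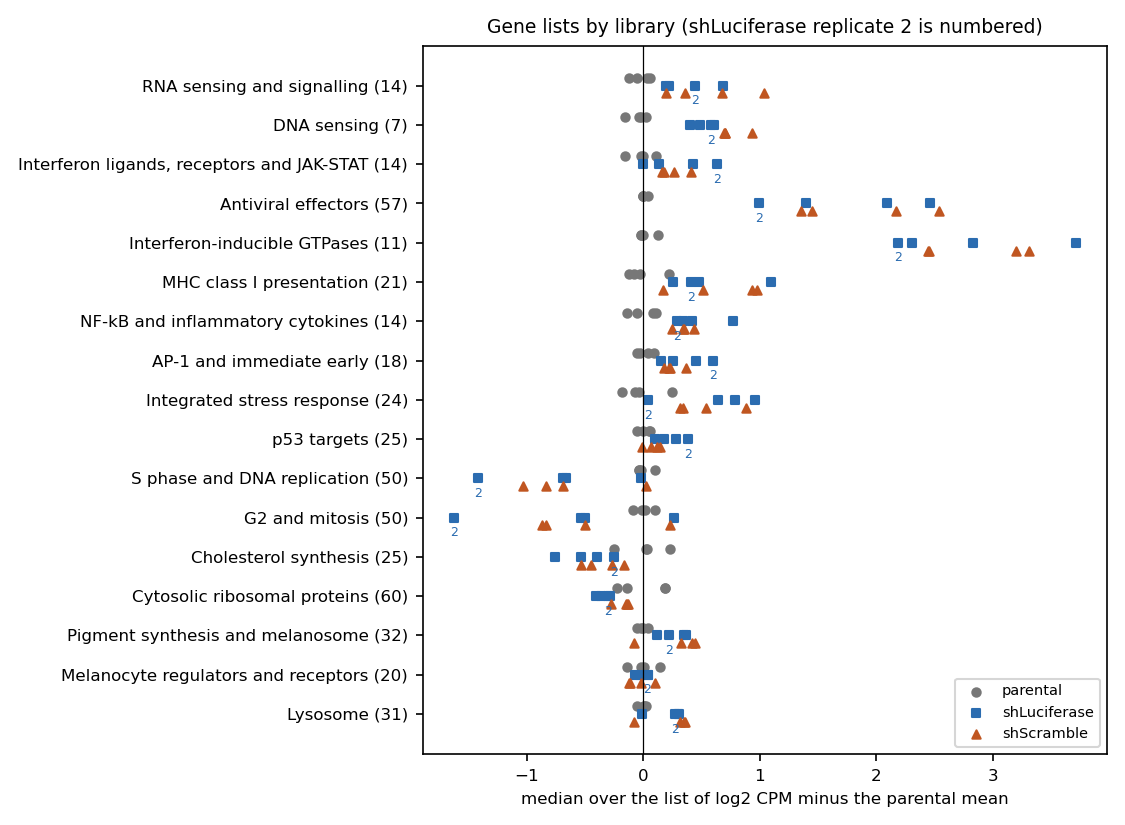
For 17 gene lists (number of tested genes in brackets), each point is 1 library's median over the list of log2 CPM minus the mean of the parental libraries. The antiviral and GTPase lists separate all control shRNA libraries from the parental ones, whereas the S phase and G2 lists spread the control shRNA libraries from the parental level or above it downwards, with shLuciferase replicate 2 lowest.

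Cell cycle genes leaned downwards and varied between libraries. Of 50 tested S phase and DNA replication genes 4 fell (8%, against 1.57% of all genes tested) and 0 rose, with all 50 fold changes below 0 and a median of −0.58. Of 50 G2 and mitosis genes 0 were called in edgeR's test, near the share over all genes, but 49 had a fold change below 0, with a median of −0.43. Over all 13541 genes tested, 6660 had a fold change below 0. Cdca7, a Myc and E2F target expressed in S phase, was at 50.6, 54.8, 49.5 and 47.6 CPM in parental cells. It was at 34.6, 15.1, 17 and 18 CPM with shLuciferase and at 37.4, 21.6, 19.7 and 16.2 CPM with shScramble. All 8 lay below the parental libraries, with the replicate numbered 1 of each hairpin highest (log2 fold change −1.18, SE 0.24, adjusted p = 0.0106). Ung, the uracil glycosylase gene, fell by 0.85 in log2 CPM (SE 0.18, adjusted p = 0.0126, and 0.0597 without parental replicate 1). The falls of Rfc2, a clamp loader subunit gene, and Rrm1, a ribonucleotide reductase subunit gene, were 0.73 and 0.66 on the log2 scale (adjusted p = 0.0375 and 0.0476), and each call was lost without any of 10 of the 12 libraries. The list median by library was −0.01, −1.41, −0.69 and −0.66 with shLuciferase and 0.02, −0.69, −0.83 and −1.03 with shScramble for S phase genes. Replicate 1 of either hairpin was thus at the parental level and shLuciferase replicate 2 furthest below it. The number of S phase genes lower was 11 without shScramble replicate 1, 4 without shLuciferase replicate 1, 1 without parental replicate 1, and 2 without any 1 of the other 9 libraries. Fewer cells in a phase and less of its RNA per cell cannot be told apart in bulk RNA.

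Myb, a transcription factor gene of proliferating precursor cells, was the marker that fell. It is protein-coding and lies on chromosome 10 (21124935 to 21160984, minus strand). Its level was 37.4, 123, 116 and 53 CPM in the parental libraries. It was 25.0, 18.3, 18.2 and 28.9 CPM with shLuciferase and 24.3, 30.1, 25.8 and 22 CPM with shScramble. The parental libraries differed among themselves by more than 3-fold, yet the lowest of them lay above all 8 control shRNA libraries. The log2 fold change was −1.78 (SE 0.36, adjusted p = 0.00841), and the adjusted p was 0.052 without parental replicate 2. With shLuciferase alone the call held (−1.87, adjusted p = 0.0325), and with shScramble alone it did not (−1.69, adjusted p = 0.0683); the difference between the hairpins was 0.18 (SE 0.43). Myb was the 1 member called lower among 13 Myb and Myc family genes (7.69%, against 1.57% of all genes tested), of which 0 rose. It was also a marker given for this comparison, and 1 call in a list of this size is near that share. Myc itself was at 144 to 178 CPM and 124 to 164 CPM (adjusted p = 0.551).

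**Figure D5:**
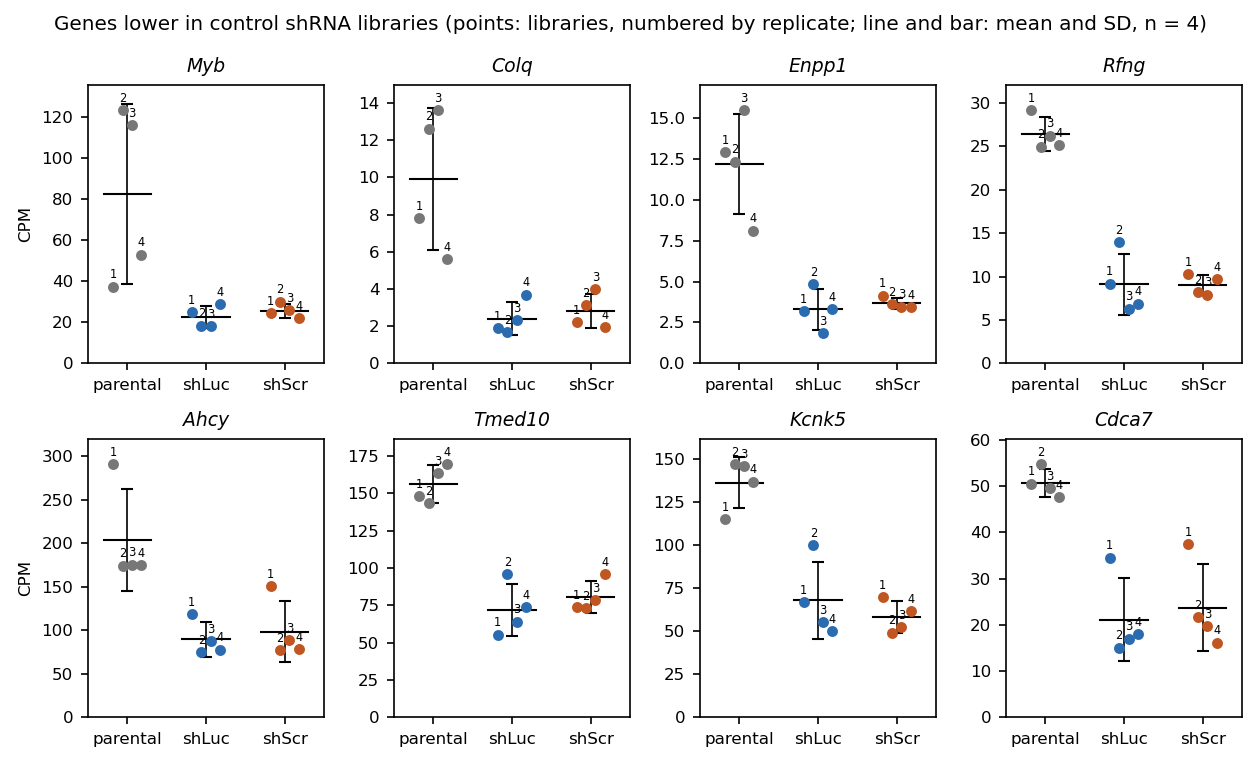
CPM of 8 falling genes in each library, with mean and SD of each group of 4 and the replicate number beside each point. All control shRNA points lie below all parental points for each of the 8 genes, and the spread of Myb is widest among the parental libraries.

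The other genes with the largest falls came from no single list. Rfng, which encodes a Fringe glycosyltransferase that modifies Notch receptors, had the smallest adjusted p. It was at 29.2, 24.9, 26.2 and 25.1 CPM in parental cells. It was at 9.19, 14.0, 6.31 and 6.89 CPM with shLuciferase and at 10.3, 8.23, 7.92 and 9.67 CPM with shScramble. All control shRNA libraries lay well below the parental ones (log2 fold change −1.54, SE 0.17, adjusted p = 0.000359). Tmed10, a cargo receptor gene of the early secretory pathway, fell from 143 to 170 CPM in parental cells to between 55.4 and 95.9 CPM (−1.04, SE 0.13, adjusted p = 0.000566), and Erp29, a chaperone gene of the endoplasmic reticulum, from 132 to 167 CPM to between 59.3 and 89.3 CPM (−1.08, SE 0.19, adjusted p = 0.00338). The Erp29 transcripts share 22.7% of their words with Naa25, a gene overlapping on the other strand. Enpp1, an ectoenzyme gene that makes pyrophosphate and cleaves cyclic GMP-AMP, was at 12.9, 12.3, 15.5 and 8.12 CPM in parental cells and at 1.83 to 4.85 CPM with control hairpins (−1.81, SE 0.30, adjusted p = 0.00264). Colq, which encodes the collagen tail of acetylcholinesterase, had the largest fall of those named by size, from 5.6 to 13.6 CPM to between 1.68 and 3.98 CPM (−1.93, SE 0.33, adjusted p = 0.0032). Kcnk5, a potassium channel gene, fell by 1.11 in log2 CPM (SE 0.17, adjusted p = 0.00162) and Brd9, a bromodomain subunit gene of a BAF complex, by 1.07 (SE 0.18, adjusted p = 0.003). Zc3hav1l, C1ql1, Tmem158 and Fam101b fell by 0.99, 1.07, 1.27 and 0.98 on the log2 scale. Tg, which encodes thyroglobulin, was at 116, 142, 161 and 180 CPM in parental cells; with control hairpins it was at 41.0 to 60.9 CPM in 7 libraries and at 124 CPM in shLuciferase replicate 2, which overlaps the parental range (−1.27, SE 0.24, adjusted p = 0.00553). Ahcy, the S-adenosylhomocysteine hydrolase gene, fell by 1.12 (SE 0.21, adjusted p = 0.00545), and 68.7% of its words also occur in the gene Gm4737. Tecrl fell by 1.69 (SE 0.34, adjusted p = 0.00822, and 0.0544 without parental replicate 3). Aldh1a7 and Aldh1a1, neighbouring aldehyde dehydrogenase genes on chromosome 19, fell by 1.71 (SE 0.32, adjusted p = 0.00539) and 1.39 (SE 0.38, adjusted p = 0.0463) on the log2 scale. Of the Aldh1a7 words, 13.8% also occur in Aldh1a1. Of 19 tested neural crest genes 1 fell (5.26%, against 1.57% of all genes tested), Aldh1a1, and 0 rose (median −0.18). In a list of this size 1 call is near that share. For Aldh1a1 the groups overlapped, at 1.41 to 6.42 CPM and 0.512 to 2.62 CPM, and the call was lost without any of 8 of the 12 libraries (adjusted p up to 0.211).

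Tyrosinase was the pigment enzyme gene that rose. Of 32 tested genes of pigment synthesis and the melanosome 3 rose (9.38%, against 2.05% of all genes tested) and 0 fell, with 24 fold changes above 0 and a median of 0.29. Tyr, which encodes the enzyme of the first steps of melanin production, was at 33.3, 33.8, 38.8 and 31.3 CPM in parental cells. It was at 162, 51.1, 309 and 225 CPM with shLuciferase and at 94.4, 268, 242 and 178 CPM with shScramble. The groups did not overlap, and shLuciferase replicate 2 was again lowest of the 8 (log2 fold change 2.48, SE 0.46, adjusted p = 0.00545). Myrip, which links melanosomes to myosin, rose by 2.01 (SE 0.47, adjusted p = 0.0225) and Hps4, a gene of lysosome-related organelle formation, by 0.58 (SE 0.16, adjusted p = 0.0498). The call for Myrip was lost without parental replicate 1, 3 or 4 (adjusted p up to 0.0871) and that for Hps4 without any 1 of the 12 libraries (adjusted p up to 0.189), which left 1 pigment gene called without parental replicate 1, 3 or 4. The other pigment enzymes did not pass: Dct stood at 627 to 1080 CPM in parental cells and 709 to 1406 CPM with control hairpins (adjusted p = 0.487), and Tyrp1 at 1172 to 2837 and 1317 to 3712 CPM (adjusted p = 0.886). Pmel, a structural protein of the melanosome, had adjusted p = 0.618 and Mlana 0.991. Mitf, the regulator of these genes, was at 586, 754, 700 and 662 CPM and at 471 to 645 CPM with control hairpins (−0.27, SE 0.20, adjusted p = 0.541). Of 20 regulators and receptors 0 were called in edgeR's test (median −0.06); Kit, the SCF receptor, had adjusted p = 0.943 and Pax3 0.362. In the shHIRA libraries Tyr ran from 3.47 to 52.9 CPM (median 9.95), a median below the lowest parental library; no test was made of this.

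Cholesterol synthesis genes leaned downwards and lysosomal genes upwards. Of 25 cholesterol synthesis genes 3 fell (12%, against 1.57% of all genes tested) and 0 rose, with 24 fold changes below 0 and a median of −0.41. Among those that fell were the enzyme genes Cyp51 and Sqle, by 0.63 and 0.44 on the log2 scale, with adjusted p = 0.0379 and 0.0444. Leaving out single libraries gave between 0 and 5 calls, with 0 without parental replicate 2, 3 or 4, shLuciferase replicate 4 or shScramble replicate 2, 1 without shLuciferase replicate 1, shScramble replicate 1 or shScramble replicate 3, and 5 without shLuciferase replicate 2. Of 31 lysosomal genes 3 rose (9.68%, against 2.05% of all genes tested) and 0 fell, with 27 fold changes above 0 and a median of 0.25: Lamp1, a membrane protein gene, from 1407 to 1614 CPM to between 1702 and 2558 CPM (0.53, SE 0.13, adjusted p = 0.0283), the calcium channel gene Mcoln1 (0.47, SE 0.11, adjusted p = 0.0244) and the proton pump subunit gene Atp6v0d2 (2.17, SE 0.55, adjusted p = 0.0335). Without parental replicate 1 or 3, shLuciferase replicate 3 or 4, or shScramble replicate 3 none of the lysosomal calls was left, and 1 was left without parental replicate 2 or 4. Of 48 nuclear respiratory chain genes, 13 mitochondrial mRNAs, 60 cytosolic ribosomal protein genes and 25 ribosome biogenesis genes, 0 were called in edgeR's test, with medians of −0.06, 0.16, −0.27 and −0.17. In these lists 32, 1, 59 and 21 genes had a fold change below 0. Of 15 MAPK and FGF feedback genes 1 rose (6.67%, against 2.05% of all genes tested), Phlda1 (0.76, SE 0.13, adjusted p = 0.00341). Of the Phlda1 words, 30.8% also occur in Gm28592. Of 24 matrix genes 1 rose (4.17%, against 2.05% of all genes tested), Thbs2, which encodes thrombospondin 2 (4.27, SE 0.96, adjusted p = 0.0175). For lists of these sizes 1 riser is near the share over all genes tested. The parental libraries held 2, 0, 1 and 4 counts of Thbs2. It did not pass without parental replicate 1, 2 or 3 (adjusted p up to 0.0713).

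Lists that bear on the treatment itself, the small RNA machinery (13 genes) and drug efflux and puromycin handling (6 genes), had 0 genes called in edgeR's test and medians of −0.04 and 0.0038. Of all genes tested, 2.05% rose and 1.57% fell, so 0 calls in lists of this size do not set them apart. The efflux pump gene Abcb1a was at 0 to 0.104 CPM in parental cells and 0.0495 to 1.4 CPM with control hairpins (log2 fold change 3.82, SE 1.07, edgeR adjusted p = 0.0525). Npepps, which encodes the puromycin-sensitive aminopeptidase, had adjusted p = 0.844. Markers of other cell types gave 0 calls among 32 tested genes, which is near the share over all genes tested. Of the 16 leukocyte markers 15 had a row in the deposited counts. Their summed level was 8.53 to 12.8 CPM in parental libraries and 12.1 to 14.9 CPM in control shRNA libraries. Ptprc was at or below 0.396 CPM and Cd3e and Tyrobp at or below 0.0593 CPM in all 12 libraries. The sum of the 6 endothelial markers did not overlap between the groups, at 56.2 to 86.6 and 91.8 to 139.7 CPM, nearly all of it from Vwf (54.4 to 85.0 and 90 to 137 CPM, adjusted p = 0.27), while Cdh5 was at or below 0.347 CPM. The leukocyte, fibroblast, keratinocyte and epithelial, neuron and glial sums overlapped between the groups. Not all of these markers were near 0. The fibroblast sum was 131 to 223 CPM in parental libraries and 63.8 to 228 CPM with control hairpins. For Schwann cell and glial markers the sums were 663 to 822 and 536 to 920 CPM. Dcn stood at 17.6 to 32.6 and 16.4 to 40.9 CPM, and Pdgfrb at 14.6 to 23.4 and 7.65 to 38.7 CPM. Thy1, Krt1 and Epcam were at 0 in all 12 libraries.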

How the data were processed

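The authors' deposited tables give estimated counts and TPM for 29956 genes. Per the submitters' processing notes they were made with bcl2fastq, kallisto and edgeR on mm10; for these the sources used here give no version, annotation or strand setting. These counts, not whole numbers as deposited, equal TPM times 1 length per gene up to a factor per library (largest departure 1.9e-09 on the log2 scale over 9793 genes), so isoform shifts do not enter them. The deposited TPM values entered 1 alternative. Columns whose names hold no hairpin were assigned to the parental group, the 1 group that has none, and those named shHIRA without a numeral as shHIRA I. The 27 rows named by spreadsheet dates are named nowhere in the text.

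Estimated counts were rounded and tested with edgeR 4.0.16 (R 4.3.3): quasi-likelihood F test, TMM scaling, default filter by group, group means over all 20 libraries, Benjamini-Hochberg adjusted p-values under 0.05 as calls. Errors of fold changes are standard errors. The script was tested on simulated data. Alternatives used limma 3.58.1 and DESeq2 1.42.0. Positions and shared 31-base words come from GENCODE M21 (GRCm38), promoters from RefSeq (GRCm38.p6).

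The comparison, its 5 markers and the 35 lists (799 genes, 712 tested) were chosen with earlier results of these data known, so list counts are no independent evidence. Named were the markers; among genes with a mean of at least 5 CPM called with both hairpins and pooled, the 15 with the largest rise and the 15 with the largest fall, leaving out predicted genes and pseudogenes; up to 4 called members of each list and direction by p; up to 5 called genes a direction between the hairpins; and Hira and melanoblast markers as checks. Predicted genes and pseudogenes were left out by symbol alone, so Oas1b and Mx2, annotated as polymorphic pseudogenes, stayed in. Genes given without a call, for context, and those under other observations were chosen after their values were seen. Results for some genes are not reported here. P-values measure the spread between these cultures of 1 line.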

Additional observations from a re-analysis of the deposited data

Results flagged for a closer look

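In groups of 4 libraries, 1 library stood apart from the other 3 (Dixon's test) in 15 of 273 groups of named genes, 5.49%, where chance gives about 1 in 20. Parental replicate 1 was high for Oas2 (0.983 CPM, the others 0.154 to 0.275), Irgm2 (2.70 CPM, the others 0 to 0.165), Oasl2 (4.06 CPM, the others 2.86 to 3.03) and Ahcy (291 CPM, the others 174 to 175), and low for Gbp2 (3.44 CPM, the others 4.78 to 5.01) and Cyp51 (141 CPM, the others 210 to 216). Parental replicate 3 was high for Sox10 (29.8 CPM, the others 0.154 to 0.246), and parental replicate 4 for Nr4a3 (41.5 CPM, the others 31.6 to 32.5) and Rrm1 (385 CPM, the others 341 to 347). Of the shLuciferase libraries, replicate 2 was low for Mx2 (13.0 CPM, the others 66.4 to 73.8) and high for Tg (124 CPM, the others 41.0 to 50.0), and replicate 1 was high for Cdca7 (34.6 CPM, the others 15.1 to 18). Of the shScramble libraries, replicate 1 was high for Ahcy (151 CPM, the others 77.3 to 88.4) and Ung (24.8 CPM, the others 14.4 to 15.6), and replicate 4 for Cyp51 (154 CPM, the others 115 to 118).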

How the results depend on the processing

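Of the 78 named genes called, 39 kept their call and direction in all 21 alternatives, 58 did in all but the test against a fold of 1.5, and 0 changed sign. Counts depended more on the setting. Genes higher and lower with a control hairpin (278 and 212) were 446 and 434 with the 12 libraries alone, 510 and 477 with the 8 control libraries as 1 group, 546 and 329 with DESeq2, 437 and 361 with the mitochondrial share as covariate, 206 and 136 without a count filter, 231 and 83 with limma on log2(TPM + 1), 288 and 190 with RLE scaling, and 70 and 5 against a fold of 1.5. For shLuciferase (179 and 84) they were 359 and 284, 383 and 233, 299 and 185, 139 and 61, and 132 and 33 in the 12-library, DESeq2, covariate, unfiltered and limma fits; for shScramble (131 and 45) 211 and 126, 316 and 170, 239 and 148, 117 and 31, and 93 and 29; and with both hairpins (107 and 34) 187 and 102, 248 and 114, 191 and 96, 97 and 24, and 85 and 19. Between the hairpins DESeq2 called 5 genes and limma 1. With a replicate block, 329 and 278 genes were called pooled, 195 and 121 with shLuciferase, 148 and 70 with shScramble, 126 and 54 with both. Same-numbered libraries had correlations of −0.14 to 0.41 between their deviations from group means, and not every library correlated best with its own number. The highest, 0.41, was between shLuciferase replicate 1 and shScramble replicate 1. With shScramble replicates 2, 3 and 4, shLuciferase replicate 1 had correlations of −0.11, −0.24 and −0.14. Whether same-numbered libraries were handled together was not tested. Leaving out 1 library at a time gave 125 to 322 and 86 to 290 genes pooled, 78 to 241 and 24 to 164 for shLuciferase, 50 to 152 and 10 to 74 for shScramble, 45 to 136 and 9 to 64 with both, and 0 to 1 between the hairpins. Some fold changes that were not called changed sign: Sox10 (−3.60 to 1.98 over libraries left out, 1.98 without parental replicate 3), Kit (0.019 with limma, −0.14 to 0.040 over libraries left out), Tyrp1 (−0.042 with the covariate, −0.040 to 0.31 over libraries left out) and Mlana (0.0043 with DESeq2, 0.0055 with RLE, 0.054 with limma, −0.077 to 0.058 over libraries left out). Leaving out a library leaves fewer samples; for the other settings the cause was not tested. Genes under about 1 CPM rest on few counts.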

Other observations

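Some predicted genes of the interferon gene cluster rose. The cluster, from Ifnb1 to Ifne, spans 88522025 to 88880201 of chromosome 4 and holds 45 annotated genes with a row, of which 10 were tested and 19 had 0 counts in all 12 libraries. The predicted protein-coding gene Gm13283 was at 0.660 to 1.72 CPM in parental libraries and at 2.57 to 9.79 CPM with control hairpins (log2 fold change 2.13, SE 0.47, edgeR adjusted p = 0.016), and Gm13288 at 0.414 to 0.822 and 0.792 to 3.81 CPM (2.05, SE 0.46, adjusted p = 0.019). Gm13285 did not overlap between the groups, at 3.83 to 4.93 and 7.18 to 15.8 CPM, but did not pass (1.30, SE 0.39, adjusted p = 0.0748). Their annotated neighbour Ifnz, interferon zeta, was at 0 to 1.44 and 0.998 to 3.37 CPM (1.74, SE 0.60, adjusted p = 0.125). Among the cluster's 45 genes, Klhl9, which is no interferon gene, was at 155 to 187 CPM in parental libraries and at 141 to 199 CPM with control hairpins.

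Some histone genes rose in poly(A) RNA. Of 44 tested genes of the Hist1 to Hist4 clusters 11 rose and 0 fell in edgeR's test. Over all genes tested, 2.05% rose and 1.57% fell. In these clusters 37 had a positive fold change, against 6881 of all 13541 genes tested, and the median was 1.11. The most abundant of those with a negative one did not pass: Hist1h2ap was at 69.3 to 112 CPM in parental libraries and at 18.7 to 131 CPM with control hairpins (log2 fold change −0.51, SE 0.42, adjusted p = 0.591), and Hist1h2ad at 26.8 to 43.0 and 8.17 to 47.3 CPM (−0.60, SE 0.42, adjusted p = 0.518). Hist1h1c, a linker histone gene, rose from 3.60 to 6.37 CPM in parental libraries to between 12 and 33.3 CPM (log2 fold change 2.29, SE 0.37, adjusted p = 0.00221), and Hist1h2bc from 11.9 to 17.2 CPM to between 26.6 and 73.5 CPM (1.95, SE 0.39, adjusted p = 0.00802). Apart from Hist1h1c, Hist1h2bc and Hist1h2be, the risers had parental means from 0.0807 CPM (Hist1h4c) to 0.479 CPM (Hist1h2ac) and rest on few counts. In the same libraries the S phase list had a negative median. Ccnd2, the cyclin D2 gene, rose from 176 to 246 CPM to between 325 and 498 CPM (0.86, SE 0.12, adjusted p = 0.00132), and Cdkn1b, the p27 gene, from 87.9 to 102 CPM to between 115 and 144 CPM (0.44, SE 0.11, adjusted p = 0.0398).

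The genes of this section were chosen after their values were seen. Further genes of lysosomal ion transport rose that no list held: Tcirg1, a proton pump subunit gene (0.76, SE 0.14, adjusted p = 0.00559), the chloride transporter gene Clcn7 (0.68, SE 0.12, adjusted p = 0.00348) and its partner Ostm1 (0.64, SE 0.16, adjusted p = 0.0259). Ywhag, a 14-3-3 protein gene, fell from 276 to 322 CPM to between 155 and 197 CPM (−0.69, SE 0.09, adjusted p = 0.000566), and Hnrnpa1, an RNA-binding protein gene, from 625 to 774 CPM to between 361 and 481 CPM (−0.82, SE 0.16, adjusted p = 0.00571). Of the rising and falling genes, 191 and 203 belonged to none of the 35 lists.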
